A study of Mus musculus with 6 samples.

Results

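The thick ascending limb of the loop of Henle was followed through 8 of its genes, Umod, Slc12a1, Bsnd, Casr, Irx1, Slc9a3, Ppp1r1b and Cdh16. They were chosen by gene symbol, for their known roles in transport by this segment or in its identity, with earlier results of these data known. All 8 were found among the 24422 genes of the count tables. RNA sequencing was performed on kidneys of C57BL/6 mice at postnatal day 60, with 3 control libraries and 3 TfR1KO;KspCre libraries. Controls carried the wild type genotype, and the other group carried Tfr1f/f;KspCre, in which a floxed transferrin receptor gene (Tfrc) is recombined by Cre under the promoter of Ksp-cadherin, a promoter of distal nephron and collecting duct epithelium. Mice of both groups received the same diet with 220 ppm iron, and the sex of each mouse was not labelled. The 3 TfR1KO;KspCre libraries are called knockouts 1 to 3. The comparison asks what became of the transcripts of this segment, which lies within the domain of the Cre, when the transferrin receptor was deleted there.

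The thick ascending limb reabsorbs sodium chloride without water and so dilutes the tubular fluid and feeds the concentrating gradient of the medulla. Sodium, potassium and chloride enter together across the apical membrane through the cotransporter NKCC2, potassium returns to the lumen through ROMK, and chloride leaves across the basolateral membrane through channels that need the subunit barttin. The positive voltage of the lumen then drives calcium and magnesium between the cells, under the control of the calcium-sensing receptor. The same cells secrete uromodulin, the main protein of normal urine.

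RefSeq promoter sequences were matched for 4 of the 8 genes and are shown because these genes of 1 segment were all at their lowest in knockouts 2 and 3 after TMM scaling, with the exception that by library size alone Casr was lower in control 3 than in knockout 3. They run 5′ to 3′ over the 250 bases before the annotated start, in the GRCm38.p6 build (gene positions given further on are those of mm9, the build of the counts). Capitals mark matches to 4 sets of letters searched on both strands, AAGGTCA (the core recognised by estrogen-related receptors), TATAAA (the TATA box), ACANNTGT (the Iroquois motif) and the letters GTTAAT. No match overlapped another.
Umod, chr7:119479263-119479512, minus strand: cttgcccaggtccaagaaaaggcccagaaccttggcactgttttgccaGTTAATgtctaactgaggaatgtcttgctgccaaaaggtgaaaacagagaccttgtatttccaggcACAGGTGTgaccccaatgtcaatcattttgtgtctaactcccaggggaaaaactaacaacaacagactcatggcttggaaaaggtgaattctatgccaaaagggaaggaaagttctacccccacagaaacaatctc
Slc12a1, chr2:125152350-125152599, plus strand: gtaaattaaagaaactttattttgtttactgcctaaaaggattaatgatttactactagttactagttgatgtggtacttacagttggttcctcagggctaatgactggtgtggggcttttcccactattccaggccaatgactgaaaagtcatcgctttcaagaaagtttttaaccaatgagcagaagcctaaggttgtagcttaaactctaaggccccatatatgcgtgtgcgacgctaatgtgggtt
Casr, chr16:36562135-36562384, minus strand: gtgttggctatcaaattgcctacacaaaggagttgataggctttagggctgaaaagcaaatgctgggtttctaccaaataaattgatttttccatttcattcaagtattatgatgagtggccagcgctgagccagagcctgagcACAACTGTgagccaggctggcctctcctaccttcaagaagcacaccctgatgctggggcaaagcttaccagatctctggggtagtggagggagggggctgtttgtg
Slc9a3, chr13:74121163-74121412, plus strand: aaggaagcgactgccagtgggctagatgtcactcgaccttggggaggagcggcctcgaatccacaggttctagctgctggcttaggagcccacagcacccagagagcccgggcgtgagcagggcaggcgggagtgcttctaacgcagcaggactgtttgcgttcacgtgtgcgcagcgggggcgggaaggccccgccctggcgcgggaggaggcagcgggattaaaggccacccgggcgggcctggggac
The Umod promoter held GTTAAT from base -202 to -197 and an Iroquois match from -136 to -129, counted from the start. The Casr promoter held an Iroquois match from -106 to -99. Of 32851 RefSeq promoters of the same length, 6.43% held GTTAAT, 6.31% ACANNTGT, 4.08% AAGGTCA and 12.4% TATAAA. The estrogen-related receptor core and the TATA box had no match in the 4 windows, and Slc12a1 and Slc9a3 held no match to any of the letters. The 4 promoters differed in composition, from 39.6% G and C in Slc12a1 to 67.6% in Slc9a3. Bsnd, Irx1, Ppp1r1b and Cdh16 had no entry.

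Libraries held between 11501053 and 21001341 counts, the smallest being knockout 3, which also held 2.59% of its counts in the ribosomal RNA gene Rn45s against at most 0.745% in the other libraries. Levels are given as counts per 1e6 counts (CPM) after TMM scaling, which adjusts for differences in RNA composition. On the first principal component of all tested genes (69.4% of the variance) the controls lay between -72.6 and -53.2, knockouts 2 and 3 at 88.6 and 82.1, and knockout 1 between the groups at 9.67. Control 2 held 3980 counts of 4 Y-linked genes, and the other libraries at most 5. Of Xist, a transcript of female cells, control 2 held 52 counts and the other libraries at least 10458. By these counts control 2 was male and the others, all knockouts among them, were female. Sex was thus not balanced between the groups, and its part in the levels was not tested. Tfrc was at 138.5, 167.9 and 62.0 CPM in controls 1 to 3 and at 214.4, 86.0 and 40.6 in knockouts 1 to 3, so the groups overlapped, knockout 1 was the highest of the 6 libraries, and the whole-gene count of Tfrc gave no check of the labels. Counts of the floxed exons alone were not analysed here. In whole kidney RNA, fewer cells of the segment and less RNA per cell cannot be told apart.

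All 8 genes had a lower fitted level in knockouts than in controls (7 of 8 when scaled by library size alone, where Cdh16 turned), but the size of the difference ran from a small one in Cdh16 to 5.76-fold between group means in Slc9a3 and 5.44-fold in Ppp1r1b, and none passed the test across all genes. After TMM scaling each of the 8 genes lay below every control in knockouts 2 and 3, though by library size alone Casr and Cdh16 in knockout 3 did not. In knockout 1 only Slc9a3 and Ppp1r1b did so, and the other 6 lay within the control range. Of all tested genes, 8.4% had that last pattern, below every control in knockouts 2 and 3 but not in knockout 1. By library size alone 4 of the 8 genes had it (Umod, Slc12a1, Bsnd and Irx1), beside 7.26% of all genes.

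**Figure D1:**
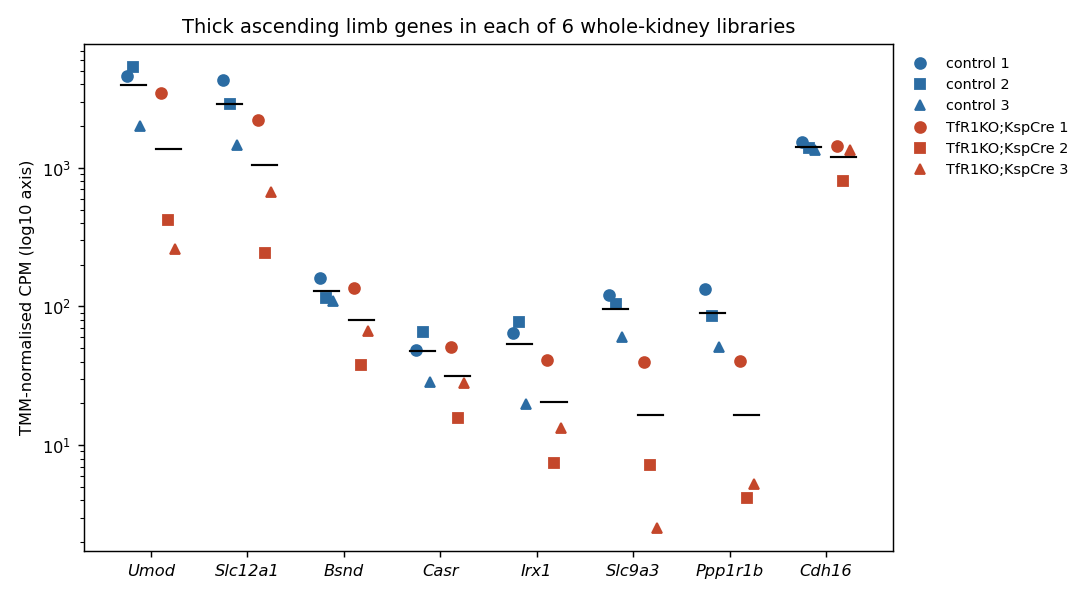
TMM-normalised CPM (log10 axis) of the 8 thick ascending limb genes, with 1 point per library and bars at the group means. On this scale (not by library size alone for Casr and Cdh16 in knockout 3) knockouts 2 and 3 lie below the controls for every gene, from 2.65% of the control mean for Slc9a3 to 94.4% for Cdh16, both in knockout 3, whereas knockout 1 leaves the control range only for Slc9a3 and Ppp1r1b.

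Slc12a1 (chr2:124978241-125055738, plus strand) encodes NKCC2, the apical cotransporter that carries most of the salt reabsorbed here and is the target of loop diuretics. It was at 4280, 2899 and 1462 CPM in controls 1 to 3 and at 2221, 244.3 and 667.1 CPM in knockouts 1 to 3. Knockout 1 thus lay inside the control range, and knockout 2 was the lowest, at 8.48% of the control mean. The controls themselves spread 2.93-fold, with control 3 the lowest. Between groups Slc12a1 had a log2 fold change of -1.46 (SE 0.81, n = 3 and 3; edgeR's quasi-likelihood test, adjusted p 0.222), which did not pass the threshold.

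Slc9a3 (chr13:74258963-74303512, plus strand) encodes NHE3, the apical sodium-proton exchanger, which the thick ascending limb shares with the proximal tubule. Its levels were 121.8, 103.4 and 60.5 CPM in controls and 39.9, 7.18 and 2.53 CPM in knockouts, with no overlap of the groups. Knockout 3, the smallest library, held 33 counts. Markers of the proximal tubule summed to 40.8%, 15.2% and 12.1% of their control mean in knockouts 1 to 3, and their part in the Slc9a3 result was not tested. Between groups the exchanger differed by -2.51 on the log2 scale (SE 0.91, n = 3 and 3), with an unadjusted p of 0.0276 and an adjusted p of 0.0900 over all genes tested (edgeR). It passed with DESeq2's Wald test (adjusted p 0.00864) and with limma-voom (adjusted p 0.0479), and over all 14 alternatives its adjusted p ran from 0.00376 to 0.210.

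Bsnd (chr4:106156061-106164888, minus strand) encodes barttin, the subunit that brings chloride channels to the basolateral membrane, also in distal convoluted and intercalated cells. It was at 160.4, 114.2 and 110.1 CPM in controls and at 135.0, 37.8 and 66.3 CPM in knockouts. Knockout 1 stood at 105% of the control mean, knockout 2 at 29.5% and knockout 3 at 51.7%. Its difference of -0.69 on the log2 scale (SE 0.44, n = 3 and 3) was not called (edgeR, adjusted p 0.286).

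Casr (chr16:36493782-36562227, minus strand) encodes the calcium-sensing receptor, which in this segment lowers calcium and magnesium reabsorption when plasma calcium is high. It was at 48.3, 65.6 and 28.6 CPM in controls and at 50.9, 15.6 and 28.0 CPM in knockouts. Knockout 3 lay just under control 3, and knockout 1 was above the control mean, at 107% of it. The receptor's log2 fold change was -0.59 (SE 0.47, n = 3 and 3), with a 95% interval from -1.69 to 0.51 (edgeR, adjusted p 0.379).

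Ppp1r1b (chr11:98209718-98219110, plus strand) encodes DARPP-32, an inhibitor of protein phosphatase 1 that protein kinase A switches on. Its levels were 134.1, 85.2 and 50.7 CPM in controls and 40.2, 4.17 and 5.21 CPM in knockouts, so that the groups did not overlap. Knockouts 2 and 3 stood at 4.63% and 5.79% of the control mean. Knockouts differed from controls by -2.43 on the log2 scale (SE 0.90, n = 3 and 3), with an unadjusted p of 0.0305 and an adjusted p of 0.0948 (edgeR). DESeq2's Wald test called it (adjusted p 0.0101), and its adjusted p ran from 0.00290 to 0.206 over the 14 alternatives. Exons of the long noncoding RNA 1700003D09Rik overlap 460 of its 2928 exon bases on the opposite strand, and since the strand setting of the counting is not given, this value is less certain than the others.

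Umod (chr7:126606380-126622769, minus strand) encodes uromodulin, which is shed into the urine and marks the segment in sections. It was at 4599, 5328 and 1999 CPM in controls and at 3444, 422.8 and 258.6 CPM in knockouts. Umod took between 0.185% and 0.454% of all counts in controls, and 0.358%, 0.0473% and 0.0294% in knockouts 1 to 3. The order of the lowest pair was the reverse of that for Slc12a1, with knockout 3 below knockout 2. For Umod the log2 fold change of -1.53 (SE 0.99, n = 3 and 3) had a 95% interval from -3.88 to 0.82 (edgeR, adjusted p 0.291).

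Irx1 (chr13:72095680-72101171, minus strand) encodes an Iroquois homeobox transcription factor that patterns the intermediate and distal nephron. It was at 64.4, 77.2 and 19.8 CPM in controls and at 41.0, 7.43 and 13.3 CPM in knockouts. The 3.91-fold spread among controls was the widest of the 8 genes, and control 3 was again the lowest control. The log2 fold change was -1.38 (SE 0.72, n = 3 and 3; edgeR, adjusted p 0.198).

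Cdh16 (chr8:107125813-107148296, minus strand) encodes Ksp-cadherin itself, an adhesion protein of tubular epithelium whose promoter drives the Cre. It was at 1540, 1379 and 1344 CPM in controls and at 1424, 805.5 and 1342 CPM in knockouts. Only knockout 2 stood well away from the controls, at 56.7% of their mean, while knockouts 1 and 3 stood at 100.2% and 94.4%. The controls spread 1.15-fold, the narrowest range of the 8 genes. The log2 fold change was -0.26 (SE 0.29, n = 3 and 3; edgeR, adjusted p 0.545) and its 95% interval ran from -0.94 to 0.43. Scaled by library size alone it turned to 0.00693, where the median of all genes shifted up by 0.27.

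Over all genes tested, 2612 of 15171 (17.2%) had an adjusted p under 0.05, of which 1008 (6.64% of those tested) were lower in knockouts. None of the 8 genes was among them, 2 of 8 had an unadjusted p under 0.05 against 38.6% of all genes, DESeq2's Wald test called 2 (Slc9a3 and Ppp1r1b, beside 32.2% of all genes) and limma-voom 1 (Slc9a3, beside 13.4%). Library size alone and a filter of at least 10 counts in every library called 0 of the 8 (edgeR), beside 24% and 16.6% of all genes, with 2 at an unadjusted p under 0.05 in each. The median log2 fold change of the 8 genes was -1.42, and that of all genes 0.02. All 8 had a fitted value below 0, as did 48.5% of all genes. The groups did not overlap, with knockouts lower, for 2 of the 8 genes and for 22.2% of all genes (46% in either direction). Knockout 2 lay below every control for 38.8% of all genes, knockout 3 for 39.3% and knockout 1 for 30.4%, against 8, 8 and 2 of the 8 genes. Scaled by library size alone, the counts of the 8 genes were 8, 6 and 2, beside 24.6%, 24.7% and 16.3% of all genes.

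Without knockout 1 the same test called 6 of the 8 genes, all lower, beside 34.4% of all genes tested (16.4% called lower). The log2 fold changes were then -3.55 for Umod, -2.67 for Slc12a1, -1.31 for Bsnd, -2.39 for Irx1, -4.27 for Slc9a3 and -4.28 for Ppp1r1b (edgeR, adjusted p from 0.00290 to 0.0295). Casr at -1.14 and Cdh16 at -0.41 were not called (edgeR, adjusted p 0.0759 and 0.267). The median of the 8 moved from -1.42 to -2.53. Without control 2, the library with Y-linked counts, 0 of the 8 and 0 of all genes were called (edgeR), 0 of the 8 and 4270 of all genes had an unadjusted p under 0.05, and the median was -1.15. Without knockout 2 or knockout 3, 0 of the 8 were called (edgeR), beside 0.474% and 0.013% of all genes, and 0 and 1 had an unadjusted p under 0.05. The median of the 8 was then -0.99 and -1.10. Bsnd at -0.35, Casr at -0.27 and Cdh16 at -0.04 without knockout 2, and Casr at -0.30 without control 2, moved toward 0 by over 1.5 times.

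**Figure D2:**
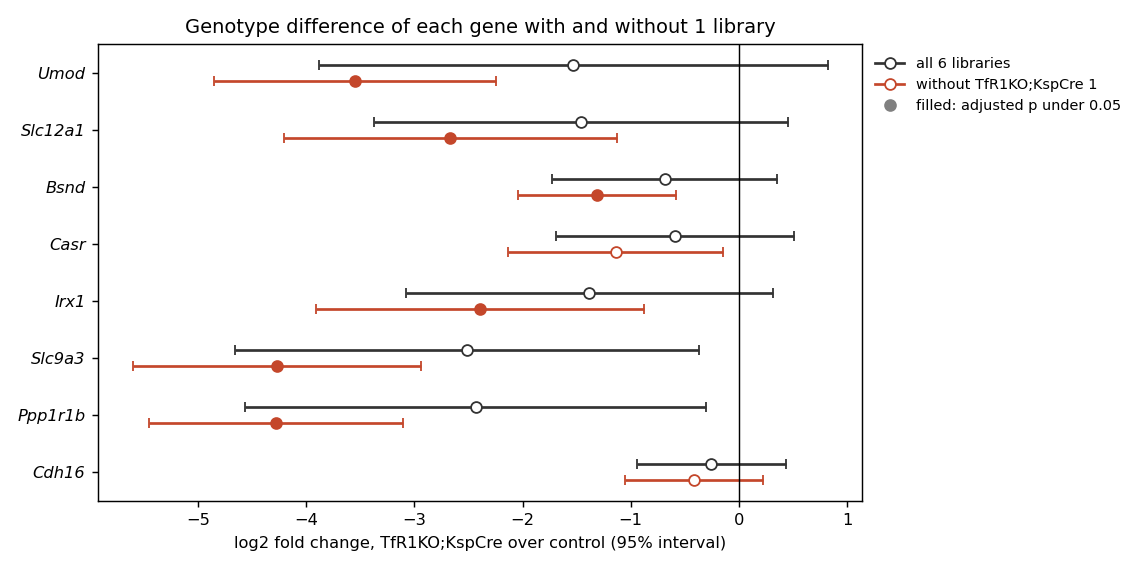
Log2 fold change of the 8 genes, TfR1KO;KspCre over control, with 95% intervals, from all 6 libraries (dark) and without knockout 1 (red), filled where the adjusted p was under 0.05. With all libraries no gene is filled and only the intervals of Slc9a3 and Ppp1r1b lie below 0, and without knockout 1 the genes other than Casr and Cdh16 are filled.

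Level relative to Cdh16 was then compared within each library, a ratio that does not depend on how libraries are scaled. For Slc9a3 the log2 ratio to Cdh16 lay below the control range in each knockout, with -3.66, -3.74 and -4.47 in controls and -5.16, -6.81 and -9.05 in knockouts. For Ppp1r1b it was -3.52, -4.02 and -4.73 in controls and -5.14, -7.60 and -8.01 in knockouts. These 2 differences, -3.05 and -2.83, had a 2-sided exact permutation p of 0.1, the smallest that 3 against 3 libraries allow, and 0.28 adjusted over the 7 ratios. The Umod ratio was 1.58, 1.95 and 0.57 in controls and 1.27, -0.93 and -2.38 in knockouts. It was thus above 0, the point of equal CPM, in every control and in knockout 1, and below 0 in knockouts 2 and 3. The Umod difference of -2.04, the Slc12a1 one of -1.59 and the Irx1 one of -1.24 each had an exact permutation p of 0.2. Bsnd at -0.56 and Casr at -0.38 had an exact permutation p of 0.3 and 0.5. Their ratios in knockout 1 lay inside the control range, and those in knockouts 2 and 3 lay below every control. With a smallest possible p of 0.1, this test could not pass for any of the 7 ratios. Leaving out 1 library at a time, the Umod difference ran from -3.02 (without knockout 1) to -1.19 (without knockout 3), that of Slc9a3 from -3.97 to -2.03 and that of Ppp1r1b from -3.71 to -2.28 by the same libraries. The Casr difference ran from -0.67 (without control 3) to -0.09 (without control 2), and that of Bsnd from -0.89 (without knockout 1) to -0.38 (without knockout 2).

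**Figure D3:**
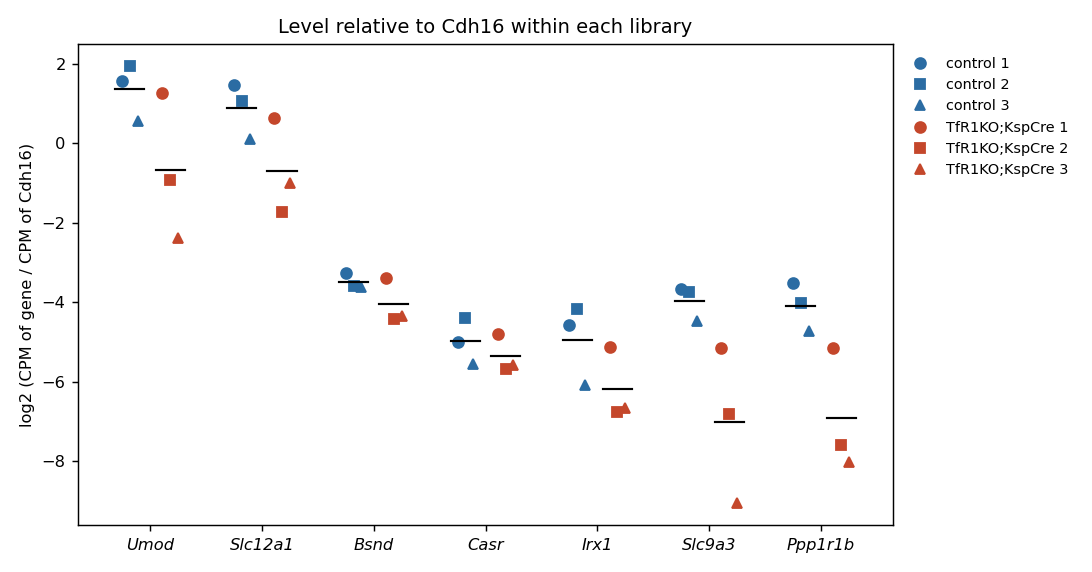
Log2 ratio of the CPM of each gene to that of Cdh16 in the same library, with bars at the group means. The groups are apart only for Slc9a3 and Ppp1r1b, and for Umod the ratio is between 0.57 and 1.95 in controls and at -0.93 and -2.38 in knockouts 2 and 3.

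Per kilobase of exon, Umod stood highest in controls, at 1608 ± 708 CPM per kb (SD, n = 3), followed by Slc12a1 at 499.8 ± 244.5 and Cdh16 at 428.4 ± 31.6. Umod did not overlap with Slc12a1 in controls, the lowest Umod value being 808.5 and the highest Slc12a1 value 742.6 CPM per kb, but with the longest transcript as the length the highest Slc12a1 value was 902.9 and the pair overlapped. Slc12a1 overlapped with Cdh16. Below them came Bsnd at 46.5 ± 10.1, Slc9a3 at 38.3 ± 12.6, Ppp1r1b at 30.7 ± 14.3, Irx1 at 26.1 ± 14.6 and Casr at 10.1 ± 3.93 CPM per kb (SD, n = 3 each). Neighbours among these 5 overlapped in controls, and with the longest transcript as the length Ppp1r1b, then at a mean of 45.0, came before Slc9a3. In knockouts the order of the means changed, and Cdh16 at 358.9 ± 101.3 CPM per kb came above Slc12a1 at 181.2 ± 180.6, while Umod at 556.2 ± 725.5 stayed first on the strength of knockout 1 (SD, n = 3 each). In knockouts 2 and 3 themselves, Umod was at 171.0 and 104.6 CPM per kb and Cdh16 at 242.9 and 404.6.

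The genes differed in which libraries they followed. Likeness was measured as the root mean square difference of centred log2 CPM over the 6 libraries, among 11337 genes whose average log2 CPM was 3 or more, where 0 would be an identical course. Bsnd and Casr lay 0.37 apart and Slc12a1 and Irx1 0.42 apart. By rank, Casr was only the 233rd nearest gene to Bsnd and Bsnd the 49th nearest to Casr, while Irx1 was the 6th nearest to Slc12a1. Ppp1r1b and Slc9a3 lay 0.54 apart, and Umod lay 0.56 from Ppp1r1b and 0.57 from Slc9a3, which were the 23rd and 26th nearest genes to Umod. Slc9a3 and Cdh16 were the farthest pair, at 1.89. The genes nearest to Umod were Mettl7a2 (0.31), Esrrb (0.32) and Bdh1 (0.34). Esrrb encodes an estrogen-related receptor, and Bdh1 a mitochondrial enzyme of ketone body metabolism. The genes nearest to Slc12a1 were Slc4a1 (0.30), which encodes the anion exchanger of type A intercalated cells and red cells, Abca4 (0.31) and Ranbp3l (0.32).

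Other genes of the segment were taken from lists by role. Of 35 such genes 34 were tested, 25 had a lower and 9 a higher fitted value, and their median log2 fold change was -0.70. With all libraries 2 of the 34 were called, the parathyroid hormone receptor Pth1r lower and the calcitonin receptor Calcr higher, beside 17.2% of all genes. Pth1r was at 536.6, 768.3 and 628.8 CPM in controls and at 406.3, 180.6 and 232.1 CPM in knockouts, which differ by -1.24 on the log2 scale (SE 0.34; adjusted p 0.0480 with edgeR). This receptor also belongs to the proximal tubule. Calcr was low throughout, at 0.448, 0.646 and 0.900 CPM in controls and 1.37, 5.42 and 10.5 CPM in knockouts, which differ by 3.10 on the log2 scale (SE 0.76; adjusted p 0.0398 with edgeR). Both lost the call without any 1 of the controls and without knockout 2 or 3, where Pth1r was between -1.37 and -1.01 and Calcr between 2.35 and 3.38 on the log2 scale. Without knockout 1, 19 of the 34 genes were called lower and 1 higher, beside 34.4% of all genes.

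Among the salt transport machinery, 8 of 10 genes had a lower fitted value and 0 were called (edgeR), with a median of -0.80 and 1 of the 10 at an unadjusted p under 0.05, beside 38.6% of all genes. The sodium pump subunit Atp1b1 was at -0.99 (SE 0.43) and its regulator Fxyd2 at -0.93 (SE 0.39). The kinases Stk39 and Oxsr1, which phosphorylate NKCC2, were at 0.19 (SE 0.19) and -0.02 (SE 0.13). Without knockout 1 this list had 5 genes called lower, among them the potassium channel Kcnj1 (ROMK), Atp1b1, Fxyd2 and the kinase Wnk1, beside 16.4% of all genes called lower in that fit.

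Claudins, which form the paracellular pores, lay on both sides of 0, with 1 of 4 tested genes lower and 0 called (edgeR). Of the 4, 2 had an unadjusted p under 0.05, beside 38.6% of all genes. Cldn10, counted as a whole gene with its transcript forms not told apart, was at -1.61 (SE 0.51; adjusted p 0.0671 with edgeR). The part of the proximal tubule in its level was not tested. Without knockout 1 it was called at -2.47, as 1 of the 4 claudins, beside 16.4% of all genes called lower. Cldn3 was at 1.56 (SE 0.57) and Cldn16, needed for calcium and magnesium passage, at 0.65 (SE 0.43), neither called. Cldn14 had between 1 and 19 counts and was not tested.

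Among hormone signalling genes 5 of 6 had a lower fitted value, with a median of -0.67, which moved to -1.28 without knockout 1. Pth1r and Calcr were those called with all libraries, beside 17.2% of all genes. The vasopressin receptor Avpr2 was at -0.52 (SE 0.30), the prostaglandin receptor Ptger3 at -0.81 (SE 0.64) and Ppp1r1a, a relative of DARPP-32, at -1.34 (SE 0.67). These 3 were not called with all libraries. Without knockout 1 they were called lower, at -0.91, -1.87 and -2.57, as was Pth1r, while Calcr was called higher. That fit called 34.4% of all genes in either direction.

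Among identity genes and transcription factors, 11 of 14 had a lower fitted value and 0 were called (edgeR), with a median of -0.70. Of the 14, 3 had an unadjusted p under 0.05, beside 38.6% of all genes. Egf, the precursor of epidermal growth factor, was at 2172, 2822 and 1467 CPM in controls and at 773.8, 62.1 and 56.1 CPM in knockouts, so the groups did not overlap (log2 fold change -2.86, SE 1.07; edgeR, adjusted p 0.0984). Tmem207 was at 73.8, 46.3 and 18.3 CPM in controls and at 23.6, 0.602 and 0.613 CPM in knockouts (-2.46, SE 1.31), knockout 1 being above control 3. Esrrb was at 112.6, 88.2 and 44.7 CPM in controls and at 48.3, 6.17 and 5.90 CPM in knockouts (-2.01, SE 0.86), again with knockout 1 above control 3. Each of them was called without knockout 1, with log2 fold changes of -5.20, -6.24 and -3.77. In the same fit Irx2, Irx3, Pou3f3, Esrrg and Tmem72 were called lower, between -1.74 and -0.89, whereas Tmem52b, Sorl1, Mal, Nos1 and Enox1 were not called. That fit called 9 of the 14 lower, beside 16.4% of all genes.

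**Figure D4:**
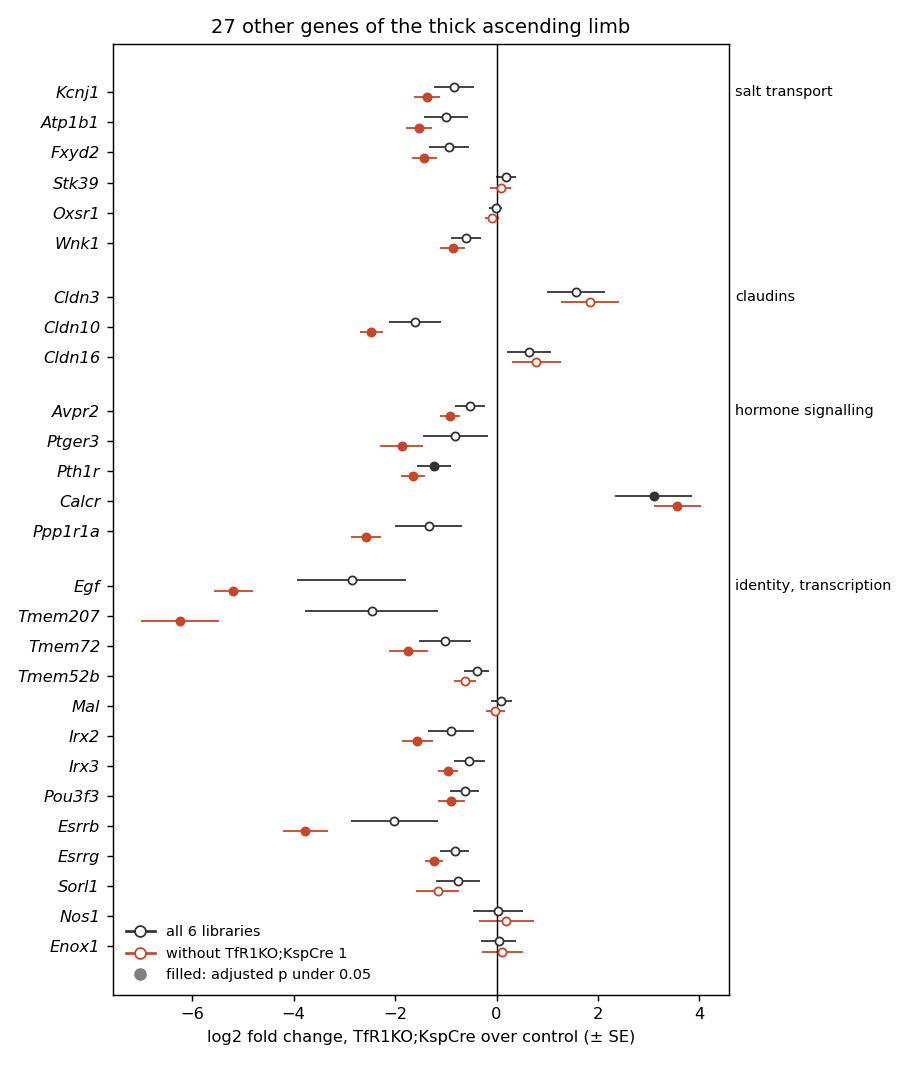
Log2 fold change (± SE) of 27 of the 34 other tested genes of the thick ascending limb, by role, from all 6 libraries (dark) and without knockout 1 (red), filled where the adjusted p was under 0.05. Pth1r and Calcr are filled with all libraries, and 18 genes without knockout 1, of which Calcr alone is to the right of 0.

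Markers of other segments and cell types differed between the same libraries. The summed level of 8 proximal tubule markers was 80.3% to 114% of the control mean in controls and 40.8%, 15.2% and 12.1% in knockouts 1 to 3, where the 8 thick ascending limb genes summed to 58.4% to 126% and to 85.1%, 17.8% and 27.4%. Knockout 1 therefore had proximal tubule markers below the control range while the summed thick ascending limb genes, a sum carried by Umod, Slc12a1 and Cdh16, were in the control range. All 8 proximal markers had a lower fitted value and 6 were called, beside 6.64% of all genes called lower. Distal convoluted tubule markers summed to 97.3%, 53.1% and 6.69% of the control mean in knockouts 1 to 3, principal cell markers to 139%, 77.8% and 42.6%, and intercalated cell markers to 102%, 40.3% and 105%. In turn 1, 0 and 0 of their genes were called (edgeR), beside 17.2% of all genes. At an unadjusted p under 0.05 were 2, 1 and 1, beside 38.6%. These sums rest on a few abundant genes, and by single markers knockout 2 was the lowest knockout for 6 of 6 intercalated, 3 of 6 principal cell and 2 of 5 distal convoluted tubule markers, and for 6 of the 8 thick ascending limb genes. Knockout 3 was the lowest for the others, among them Umod and Slc9a3.

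Injured tubule markers summed to 320%, 527% and 463% of the control mean in knockouts 1 to 3, with 5 of 5 called higher, beside 10.6% of all genes. Immune cell markers summed to 345%, 723% and 372%, with 5 of 6 called higher, and fibroblast and matrix markers to 263%, 834% and 1103%, with 4 of 5 called higher. All 3 lists were thus above their control ranges in knockout 1 as well. The calls in these lists and in the tubule lists were lost without any 1 of the controls, where 0 genes were called (edgeR) and 4270 to 4823 had an unadjusted p under 0.05. Podocyte markers were at 160%, 96.0% and 152% and endothelial markers at 132%, 125% and 127%, with 0 called in either list (edgeR), beside 17.2% of all genes. Of the podocyte and endothelial markers 1 and 2 had an unadjusted p under 0.05, beside 38.6% of all genes. Each of the 49 markers in these 9 lists had counts in every library. The part of these other cells in the levels of the thick ascending limb genes was not tested.

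**Figure D5:**
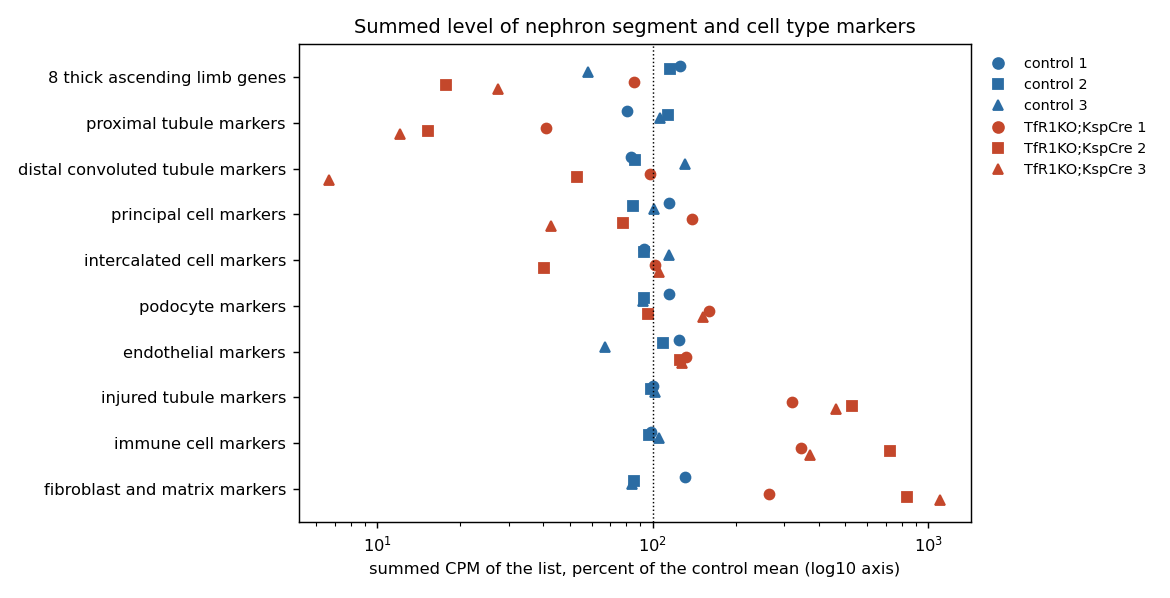
Summed CPM of each list in each library, as a percentage of the control mean (log10 axis, dotted line at 100). The sum of the 8 thick ascending limb genes, to which Umod, Slc12a1 and Cdh16 contribute most, lies in the control range in knockout 1 at 85.1%, although Slc9a3 (41.9%) and Ppp1r1b (44.7%) lie below it, while its proximal tubule markers lie at 40.8% and its injured tubule markers at 320%.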

How the data were processed

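Whole kidney RNA was enriched for poly-A and sequenced from 6 libraries. The authors deposited raw counts per gene, 1 table per group, made with CASAVA 1.8.2, Trimmomatic, alignment to mm9 with TopHat2 2.0.11 and HTSeq on uniquely mapped reads. Which gene models and which strand option HTSeq used is not given in the sources used here. Unique mapping lowers counts of genes with near-identical copies, but 100% of the 50-base words of the longest transcript of each of the 8 genes were found in no other protein-coding transcript (GENCODE M1, mm9). Exon lengths for levels per kb came from the same annotation.

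Counts were tested across all genes with edgeR 4.0.16 in R 4.3.3 (filterByExpr with a minimum count of 10 and a minimum total of 15, TMM, glmQLFit with legacy=TRUE, no covariate), which kept 15171 genes, with the 8 among them, with Benjamini-Hochberg adjustment across every gene tested. SE is the log2 fold change divided by the square root of F. CPM are per 1e6 scaled counts, and log2 CPM used a prior count of 2. The series text calls the replicates biological. No 2 libraries of a group agreed within counting noise (chi-square per degree of freedom 52.9 to 125), so each was counted as a separate sample. Alternatives were DESeq2 1.42.0 size factors, library size alone, other filters, legacy=FALSE, the Wald test of DESeq2, limma-voom (limma 3.58.1), a replicate block, and leaving out each library. The study names DESeq2 in the legend of a supplementary figure, without the kind of test. Scripts were tested on simulated data.

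The 8 genes, the lists and the tests were chosen with earlier results of these data known. Named genes are the 8 members, Tfrc, the 3 nearest genes to Umod and Slc12a1, listed genes called with all libraries or without knockout 1, and up to 3 per list with the largest differences, and some of the genes so chosen are not reported here. Stk39, Oxsr1, Cldn14, Tmem52b, Sorl1, Mal, Nos1, Enox1, Slc12a2, Gprc6a, Cdh1 and Cdh6 were named after their values were seen. The red cell list (Alas2 tested, Hba-a1 and Hbb-b1 at 0 in the 6 libraries) had 0 calls.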

Additional observations from a re-analysis of the deposited data

How the results depend on the processing

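The fitted direction of 7 of the 8 genes held in all 14 alternatives, and that of Cdh16 in 13. With library size alone Cdh16 turned to 0.00693, and the share of calls that were higher rose to 81.8% from 61.4% under TMM. Casr then moved from -0.59 to -0.33 and Bsnd from -0.69 to -0.45. Umod moved the other way, from -1.53 to -2.42 with limma-voom and to -2.40 with a replicate block. The 7 ratios to Cdh16 kept their direction without any 1 library, with differences from -3.97 to -0.09. DESeq2's Wald test called 4882 genes, 2 of the 8 and 9 of the 34 other thick ascending limb genes (7 lower), and limma-voom called 1 and 1 of these. Of the 34, library size alone called 1, and the cause of these differences between tools and scalings was not tested. A filter of at least 10 counts in every library called 1, since it removed Calcr, with 9 counts in control 1, before the test. Counts of the 8 genes below every control, repeated with library size alone as a check chosen after seeing the data, fell from 8 to 6 in knockout 3. Fits without 1 library called from 0 to 5332 genes, from 0 to 6 of the 8 and from 0 to 20 of the 34, and the highest of each came without knockout 1. All 3 fits without a control called 0 genes, with 4270 to 4823 at an unadjusted p under 0.05. Fits without knockout 2 or 3 called 73 and 2 genes, none of the 8.

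A replicate block called 0 genes, 0 of the 8 and 0 of the 34, with 5432 genes and 5 of the 8 passing 0.05 before adjustment. Deviations of same-numbered control and knockout libraries correlated at -0.13, 0.01 and 0.21, and the numbers were not taken as pairs. With the longest transcript as the length the control level of Cdh16 moved from 428.4 to 488.4 CPM per kb, that of Ppp1r1b from 30.7 to 45.0 and that of Slc12a1 from 499.8 to 607.7.

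Depth limits the lowest values, as knockout 3 held 33 counts of Slc9a3 and 68 of Ppp1r1b. With 3 libraries a group, the 95% interval of Umod ran from -3.88 to 0.82 on the log2 scale, and so spans both a fall and a rise.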

Other observations

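Relatives of the 8 genes gave a mixed picture. Of 9 listed, 8 were tested, and 4 had a lower and 4 a higher fitted value, beside 48.5% of all genes lower. With all libraries 1 was called, beside 17.2% of all genes. Without knockout 1, 3 were called lower, beside 16.4% of all genes. Slc9a8, which encodes another sodium-proton exchanger of the kidney, fell from 313.3, 520.1 and 291.0 CPM in controls to 68.8, 55.9 and 69.7 CPM in knockouts, a difference of -2.53 on the log2 scale (SE 0.27; adjusted p 0.0271 with edgeR). Knockout 1 was as low as the other knockouts for this gene, unlike for Slc9a3, where it stood at 41.9% of the control mean and knockouts 2 and 3 at 7.53% and 2.65%. Proximal tubule markers summed to 40.8%, 15.2% and 12.1% of their control mean in knockouts 1 to 3. Their part in the Slc9a8 result was not tested. The call of Slc9a8 held without knockout 1 (-2.59; edgeR, adjusted p 0.00354) and was lost without any 1 of the other 5 libraries (-2.69 to -2.23; edgeR, adjusted p from 0.0512 to 0.118). The exchanger Slc9a2 was at -0.80 (SE 0.28) and was not called with all libraries, but was without knockout 1 (-1.13; edgeR, adjusted p 0.0134).

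Gp2, the closest relative of Umod, was low in whole kidney, at 8.76, 8.64 and 7.44 CPM in controls and 5.15, 0.703 and 1.84 CPM in knockouts (log2 fold change -1.68, SE 0.65; edgeR, adjusted p 0.105), with no overlap of the groups. Without knockout 1 Gp2 was called, at -2.74 (edgeR, adjusted p 0.00785). Slc12a2 (NKCC1), the basolateral relative of NKCC2, was at 84.2, 100.8 and 71.1 CPM in controls and at 81.4, 227.9 and 83.5 CPM in knockouts, so among knockouts knockout 2, the library with the least Slc12a1, was the one above the control range. Slc12a3 (NCC), of the distal convoluted tubule, was at 1130, 1115 and 1686 CPM in controls and at 1250, 552.5 and 61.7 CPM in knockouts. Knockout 3 was thus the lowest for Slc12a3, and knockout 2 for Slc12a1. The cadherins Cdh1 and Cdh6 were at 0.15 (SE 0.22) and 0.79 (SE 0.29), not called, beside -0.26 (SE 0.29) for Cdh16. Gprc6a, a relative of Casr, had 0 counts in the 6 libraries.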
